A study of Rattus norvegicus with 4 samples.

Results

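The myogenic basic helix-loop-helix (bHLH) factors Myod1, Myog, Myf5 and Myf6, the E proteins Tcf3 and Tcf12 with which they pair, and the Mef2 factors Mef2a, Mef2b, Mef2c and Mef2d were examined in 2 clones of PC12, a neuron-like line isolated from a rat pheochromocytoma. The 10 genes were chosen by name, and all 10 are among the 25810 genes of the count files. RNA-Seq of total RNA was carried out on 2 libraries of the wild-type clone wtPC12, whose level of the repressor REST is low, and on 2 of hrPC12, a clone that arose spontaneously, has high REST and was formerly called PC12-27. No treatment is given for either clone. Each REST level is represented by a single clone, so that the effect of REST cannot be told apart from whatever else distinguishes the clones. Nothing in the labels says that the libraries of a clone came from separate cultures, and p values therefore measure only the spread between these libraries.

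Myogenic factors (MRFs) are transcription factors that direct skeletal muscle formation in a cascade, with Myf5 and Myod1 acting in the commitment of myoblasts, Myog in their terminal differentiation and Myf6 at both stages. They bind DNA at E-boxes as dimers with the ubiquitous E proteins, and Id proteins, which lack a DNA-binding region, hold E proteins away from them. Mef2 factors, MADS-box proteins with roles in muscle, neurons and many other tissues, cooperate with MRFs at muscle genes and are restrained by class IIa histone deacetylases.

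Reads counted on genes ranged from 20975027 to 27246502 per library. Normalized counts are reads scaled by edgeR's TMM factors to a common library size, and 1 library's floor of 3 reads, below which a gene may be expressed and yet have no read, equals 2.54 to 3.49 of them. Replicates of wtPC12 lay further apart than those of hrPC12, with a median absolute log2 difference of 0.386 against 0.173 over the 13726 genes tested. Rest itself, which encodes REST, lay higher in both hrPC12 libraries, at 43.0 and 132 normalized counts in wtPC12 and 964 and 915 in hrPC12, a log2 FC of 3.42 (SE 0.57, edgeR adjusted p = 0.0115). All fold changes are hrPC12 over wtPC12. Differentially expressed (DE) genes are those whose adjusted p is under 0.01 and whose log2 FC is above 2 or below -2.

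Of the 10 factors, 3 were DE and all 3 were higher in hrPC12, the MRFs Myod1 and Myog and the Mef2 factor Mef2c, whereas among all tested genes 4.84% were DE and higher and 5.46% DE and lower. Another 5 (Mef2a, Mef2b, Mef2d, Tcf3 and Tcf12) were tested and not DE. Myf5 and Myf6 failed the filter, which asks for reads in both clones and for an average of 5 normalized counts or more. Myog and Mef2c had at most 1 read in each wtPC12 library and passed it through hrPC12. No factor was DE and lower by edgeR or by DESeq2, with 1 lower at an unadjusted p under 0.05. Both hrPC12 libraries lay above both wtPC12 libraries in 5 of the 8 tested factors (37.9% of all tested genes) and below them in 1 (35.6%). Every DE call in this report, like that of every other gene, was lost when wtPC12 replicate 2 was left out, when 0 of 13590 tested genes were DE by edgeR although 3234 were higher and 3564 lower at an unadjusted p under 0.05. The calls of Mef2c, Id1, Eya2, Bhlha15, Smarcd3, Actc1 and Klf2 were also lost without wtPC12 replicate 1.

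**Figure D1:**
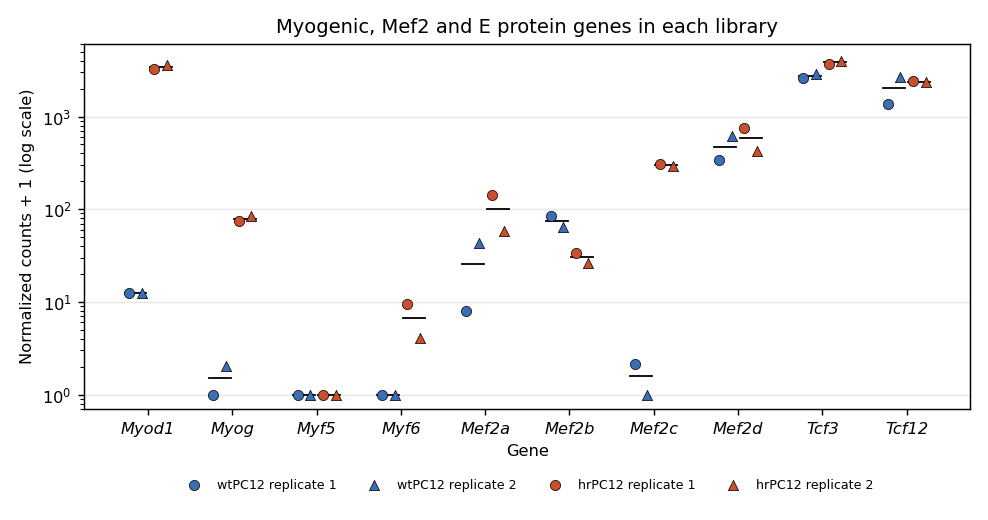
Normalized counts + 1 of the 10 factors on a log axis, with a circle or triangle for replicate 1 or 2 of wtPC12 (blue) and hrPC12 (red) and a bar at the mean of each clone. Myod1, Myog and Mef2c show a wide gap between the clones, whereas the libraries of Mef2d and Tcf12 overlap.

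Among the MRFs, Myod1 is able to turn many cell types towards muscle when expressed alone. It was counted 10 and 11 times in the wtPC12 libraries and 3849 and 3534 times in those of hrPC12. On the normalized scale these are 11.6 and 11.3 in wtPC12 and 3258 and 3576 in hrPC12. Both hrPC12 libraries were high and close together, and wtPC12 was low in both but above the floor of 3 reads. The means of wtPC12 and hrPC12 were 11.5 ± 0.213 and 3417 ± 224 (SD, n = 2 each), a 295-fold difference. The log2 FC was 8.20 (SE 0.26, 95% interval 7.55 to 8.86, edgeR adjusted p = 0.000243), and 94 of the 13726 tested genes had a higher one.

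Myog, the differentiation factor, had 0 and 1 reads in wtPC12 and 86 and 83 in hrPC12. In normalized counts this is 0 and 1.03 against 72.8 and 84.0, so that the gene was at or under the floor in wtPC12 and well above it in both libraries of hrPC12. The hrPC12 mean of 78.4 ± 7.90 (SD, n = 2) was at least 23.8-fold higher than the floor in wtPC12. The fitted log2 FC was 6.87 (SE 0.75, 95% interval 4.95 to 8.80, edgeR adjusted p = 0.00338), a value that rests on 1 wtPC12 read and depends on the prior count. Without wtPC12 replicate 2 that read is gone and the gene could not be tested.

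The other two MRFs were scarce. Myf5, the earliest of the 4 in the embryo, had 0 reads in all 4 libraries, and its expression was not detectable at this depth. Myf6, abundant in mature muscle, had 0 reads in both wtPC12 libraries and 10 and 3 in hrPC12, or 8.47 and 3.04 normalized counts. Its hrPC12 mean of 5.75 ± 3.84 (SD, n = 2) is 1.75 times the floor in wtPC12 and rests mainly on replicate 1. Replicate 2 of hrPC12 lies at the floor, and no test was made. Of the 4 MRFs, 2 were thus tested and both were DE and higher, as were 4.84% of all tested genes. Of these 2, Myog passed the filter only through hrPC12.

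The promoters of Myog and Myf6 are shown because the proximal promoter of Myog is known to be driven by MRFs and Mef2 proteins through E-boxes and an A/T-rich Mef2 site, and because these are the MRFs with reads in hrPC12 whose promoter could be read. The 250 bases before the gene start were taken from RefSeq (rat assembly GRCr8, which is not the build of the counts), where 8 of the 10 factors had an entry and Myod1 and Mef2c had none. Myog lies at chr13:48297226-48297475 on the + strand and Myf6 at chr7:44701314-44701563 on the - strand. Capitals mark E-boxes, searched as CANNTG, and matches to CTANNNNTA, both on both strands. The latter has the ends of a Mef2 site but allows any 4 bases between them, so that not every match is A/T-rich.
Myog: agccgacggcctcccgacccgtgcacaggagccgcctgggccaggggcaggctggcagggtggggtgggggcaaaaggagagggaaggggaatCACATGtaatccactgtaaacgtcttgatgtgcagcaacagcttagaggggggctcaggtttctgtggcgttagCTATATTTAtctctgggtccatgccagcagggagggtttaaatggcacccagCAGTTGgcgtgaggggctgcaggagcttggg
Myf6: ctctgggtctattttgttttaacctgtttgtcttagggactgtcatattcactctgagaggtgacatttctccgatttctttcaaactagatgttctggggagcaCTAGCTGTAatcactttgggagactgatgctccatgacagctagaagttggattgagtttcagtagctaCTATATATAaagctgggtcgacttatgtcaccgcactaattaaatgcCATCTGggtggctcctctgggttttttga
In Myog the E-boxes CACATG and CAGTTG begin 157 and 31 bases before the start, with the A/T-rich match CTATATTTA at 83. In Myf6 the E-box CATCTG begins at 29, and the CTANNNNTA matches CTAGCTGTA and CTATATATA at 145 and 76. Of these matches, CTAGCTGTA has GCTG in its middle and is not A/T-rich like a Mef2 site. Such letters are frequent, since 65.5% of 33469 rat promoters of the same length held CANNTG and 20% held CTANNNNTA. Of the 8 factors with an entry, 4 held CANNTG (Myog, Myf6, Mef2b and Tcf3) and 4 held CTANNNNTA (Myog, Myf6, Mef2a and Mef2d). The E-box form CAGCTG, which is also counted as CANNTG, was in 0 of the 8 and in 12% of all promoters. A match is a description of the letters and not of binding.

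Among the Mef2 factors, Mef2c was the one called DE. This factor, which takes part in the development of heart, skeletal muscle and cortical neurons, had 1 and 0 reads in wtPC12 and 362 and 287 in hrPC12. Its normalized counts were 1.16 and 0 in wtPC12 and 306 and 290.4 in hrPC12. The hrPC12 libraries nearly coincided, while wtPC12 was at or under the floor. The hrPC12 mean, 298 ± 11.4 (SD, n = 2), was at least 90.7-fold above the floor in wtPC12, and the fitted log2 FC was 8.79 (SE 0.67, 95% interval 7.08 to 10.50, edgeR adjusted p = 0.00119). As for Myog, the fitted value rests on 1 wtPC12 read, here of replicate 1, and the gene could not be tested without that library. An uncharacterized RNA gene, LOC103691412, overlaps Mef2c in RefSeq, and since the kit does not mark strand their reads may not be told apart.

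Mef2a, widely expressed and a partner of MRFs in differentiating muscle, was higher in both hrPC12 libraries but varied within each clone. Its normalized counts were 6.98 and 42.2 in wtPC12 and 141 and 56.7 in hrPC12. The clones did not overlap, yet the distance between the wtPC12 libraries, 2.44 on the log2 scale, was larger than the difference of 1.98 between the clones (SE 0.89, 95% interval -0.28 to 4.25, edgeR adjusted p = 0.143). Leaving out 1 library at a time moved the log2 FC from 1.18 to 3.80.

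Mef2b, a family member best known in germinal-centre B cells, was the factor with lower values in hrPC12. It had 83.8 and 63.9 normalized counts in wtPC12 and 33.0 and 25.3 in hrPC12, so that the clones did not overlap. The log2 FC of -1.33 (SE 0.39, 95% interval -2.33 to -0.33) did not pass the threshold (edgeR adjusted p = 0.0547). Its mean was 73.8 ± 14.1 in wtPC12 and 29.2 ± 5.46 in hrPC12 (SD, n = 2 each).

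Mef2d, expressed in many tissues, overlapped between the clones. Its normalized counts were 336 and 612 in wtPC12 and 748 and 428 in hrPC12, with replicate 1 the lower library of wtPC12 and the higher of hrPC12. The log2 FC was 0.31 (SE 0.43, 95% interval -0.78 to 1.40, edgeR adjusted p = 0.593), and it fell below 0 without replicate 1 of either clone.

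**Figure D2:**
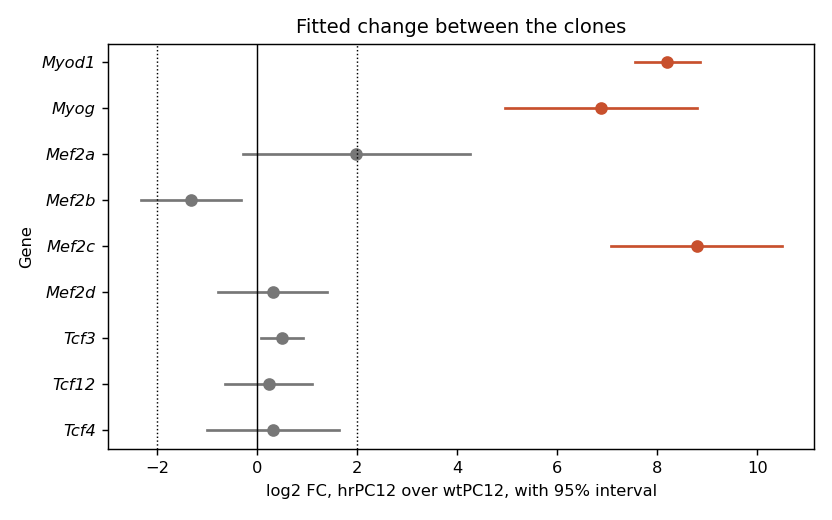
Fitted log2 FC (hrPC12 over wtPC12) of the tested factors and of Tcf4, with 95% intervals from edgeR, DE genes in red and dotted lines at the log2 FC of 2 and -2 used for DE calls. Myod1, Myog and Mef2c lie at 8.20, 6.87 and 8.79, and the intervals of Mef2a, Mef2d, Tcf12 and Tcf4 include 0.

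The E proteins, the partners that MRFs need to bind DNA, were expressed in both clones. Tcf3, which encodes E12 and E47, had 2623 and 2867 normalized counts in wtPC12 and 3706 and 4007 in hrPC12. Both hrPC12 libraries were above both of wtPC12, at a mean of 3857 ± 213 against 2745 ± 172 (SD, n = 2 each). The log2 FC was 0.49 (SE 0.16, 95% interval 0.07 to 0.91, edgeR adjusted p = 0.0744) and did not pass the threshold. RefSeq also gives Tcf3 as an older name of Tcf7l1, an HMG-box factor of the Wnt pathway. Tcf7l1 has a row of its own, with 5.82 and 10.3 normalized counts in wtPC12 and 229 and 211 in hrPC12 (log2 FC 4.74, SE 0.43, edgeR adjusted p = 0.00192).

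Tcf12, or HEB, the E protein often studied as a partner of Myod1, had 1370.3 and 2689 normalized counts in wtPC12 and 2403 and 2367 in hrPC12. The hrPC12 libraries nearly coincided and lay between those of wtPC12. The log2 FC was 0.23 (SE 0.34, 95% interval -0.64 to 1.10, edgeR adjusted p = 0.617). An RNA gene, LOC134480205, overlaps Tcf12 in RefSeq, with the same limit as for Mef2c. The clones also overlapped in Tcf4, the remaining E protein and not one of the 10 factors. It had 288 and 680 normalized counts in wtPC12 and 788 and 421 in hrPC12 (log2 FC 0.32, SE 0.52, 95% interval -1.01 to 1.65, edgeR adjusted p = 0.651). In Mef2a, Mef2d, Tcf12 and Tcf4, as in Myog and Tcf3, replicate 1 of wtPC12 was the lowest of the 4 libraries, and the log2 FC of Tcf12 and Tcf4 turned to -0.20 and -0.21 without it.

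The DE factors were compared with the whole table for genes of like level. Nearest to Myod1 in log2 normalized count over the 4 libraries, among 12308 genes with a symbol, were Car5b (distance 0.519), the kinesin Kifc3 (0.526) and the cell surface protein Flrt3 (0.729). For Myog they were Wisp1 (0.0976), the growth factor Tgfa (0.195) and the dynein Dnah5 (0.416). The distances show that the 4 values of these genes were close and nothing further, since 2 clones give a gene few ways to vary. Genes that lie next to the factors were taken from the RefSeq order along the chromosomes. The median log2 FC of the 10 nearest tested genes was 0.06 around Myod1, -0.45 around Myog and 0.38 around Mef2c, against 0.06 over all tested genes, with 0, 1 and 0 of the 10 DE and higher and 2, 0 and 0 DE and lower.

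Inhibitors of MRFs were next examined. Of 16 Id proteins and other repressors of MRF activity, 11 were found by name, 7 were tested, and 1 was DE, Id1, which was lower in hrPC12. Over all tested genes, 4.84% were DE and higher and 5.46% DE and lower. Id1, the classical inhibitor of Myod1, had 14818 and 8720 normalized counts in wtPC12 and 2495 and 2975 in hrPC12. The clones did not overlap, and the log2 FC was -2.11 (SE 0.31, edgeR adjusted p = 0.00800). The call was also lost without replicate 1 of wtPC12 or of hrPC12. Id2 and Id3 had log2 FC of 0.38 and -0.22 (edgeR adjusted p = 0.367 and edgeR adjusted p = 0.491), and Id4 had 1 read in all. Twist1, a mesodermal bHLH repressor of MRFs, had a log2 FC of 0.58 (edgeR adjusted p = 0.114). The median of the 7 tested genes was 0.38.

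The factors that stand upstream of MRFs in the embryo were mostly without reads. Of 14 genes, 12 were found, 3 were tested, and 10 had at most 3 reads in each hrPC12 library. Pax3, which acts before Myod1 in the somite, had 0 and 0 reads in wtPC12 and 3 and 2 in hrPC12. Pax7, the marker of satellite cells, had 0 and 2 in wtPC12 and 0 in both of hrPC12. Eya2, a cofactor of homeodomain proteins, was the DE gene of this list and was lower in hrPC12, with 88.4 and 76.2 normalized counts in wtPC12 and 5.93 and 7.08 in hrPC12 (log2 FC -3.64, SE 0.43, edgeR adjusted p = 0.00414). Over all tested genes, 5.46% were DE and lower.

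E proteins also pair with bHLH factors of other tissues. Of 29 such partners, all found, 10 were tested, at a median log2 FC of -0.75. DE and higher in hrPC12 was 1 (4.84% of all tested genes), and DE and lower were 2 (5.46%). Among those lower was Hand1, of heart and sympathetic cells, which had 5188 and 4449 normalized counts in wtPC12 and 266 and 326 in hrPC12 (log2 FC -4.03, SE 0.22, edgeR adjusted p = 0.000549). Its clones were far apart, in the direction opposite to Myod1. Bhlha15 (Mist1), a factor of secretory cells, was higher, with 59.3 and 56.7 normalized counts in wtPC12 and 529 and 287 in hrPC12 (log2 FC 2.81, SE 0.41, edgeR adjusted p = 0.00791). Hand2 had a log2 FC of -0.85 (edgeR adjusted p = 0.0979).

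**Figure D3:**
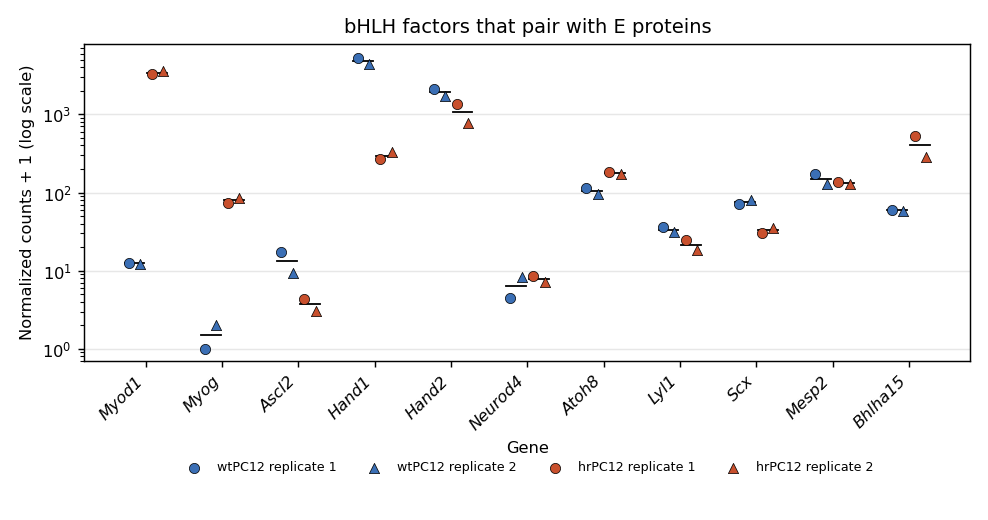
Normalized counts + 1, on a log axis, of Myod1, Myog and 9 of the 10 tested bHLH partners of E proteins from other tissues, with a circle or triangle for replicate 1 or 2 of wtPC12 (blue) and hrPC12 (red) and a bar at the mean of each clone. In Myod1, Myog and Bhlha15 the hrPC12 libraries lie above those of wtPC12, and in Hand1 far below them.

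No class IIa histone deacetylase (Hdac) or other Mef2 corepressor was DE, where 4.84% of all tested genes were DE and higher and 5.46% DE and lower. Of 7 such genes, 6 were found and 5 tested, with 1 higher and 1 lower at an unadjusted p under 0.05 by edgeR and 0 DE by DESeq2. Hdac5, which holds Mef2 proteins silent until it leaves the nucleus, had 3280.4 and 3616 normalized counts in wtPC12 and 2019.9 and 2276 in hrPC12 (log2 FC -0.68, SE 0.17, edgeR adjusted p = 0.0363). Hdac7 had 761 and 1002 in wtPC12 and 1554 and 1490.4 in hrPC12 (log2 FC 0.79, SE 0.22, edgeR adjusted p = 0.0498). These 2 genes had non-overlapping clones in opposite directions, within the log2 FC of 2 (37.9% of all tested genes lay above and 35.6% below in this way). Hdac4 had a log2 FC of -0.36 (edgeR adjusted p = 0.599), and Hdac9 had at most 2 reads in any library.

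Of 22 coactivators and partners of MRFs and Mef2, 18 were found and 15 tested, at a median log2 FC of 0.18. DE and higher were 2 (4.84% of all tested genes), and DE and lower was 1 (5.46%). Smarcd3 (Baf60c), the chromatin remodelling subunit that joins Myod1 to the SWI/SNF complex, had 507 and 483 normalized counts in wtPC12 and 4695 and 2681 in hrPC12 (log2 FC 2.90, SE 0.32, edgeR adjusted p = 0.00352). Vgll4, which binds Tead proteins, had 89.6 and 138 in wtPC12 and 595 and 578 in hrPC12 (log2 FC 2.36, SE 0.32, edgeR adjusted p = 0.00651). Tead3, a factor of the Tead family, was lower, with 376 and 318 in wtPC12 and 62.6 and 56.7 in hrPC12 (log2 FC -2.54, SE 0.30, edgeR adjusted p = 0.00407). None of the 3 overlapped between the clones, which is common, since 37.9% of all tested genes lay wholly above and 35.6% wholly below in hrPC12.

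**Figure D4:**
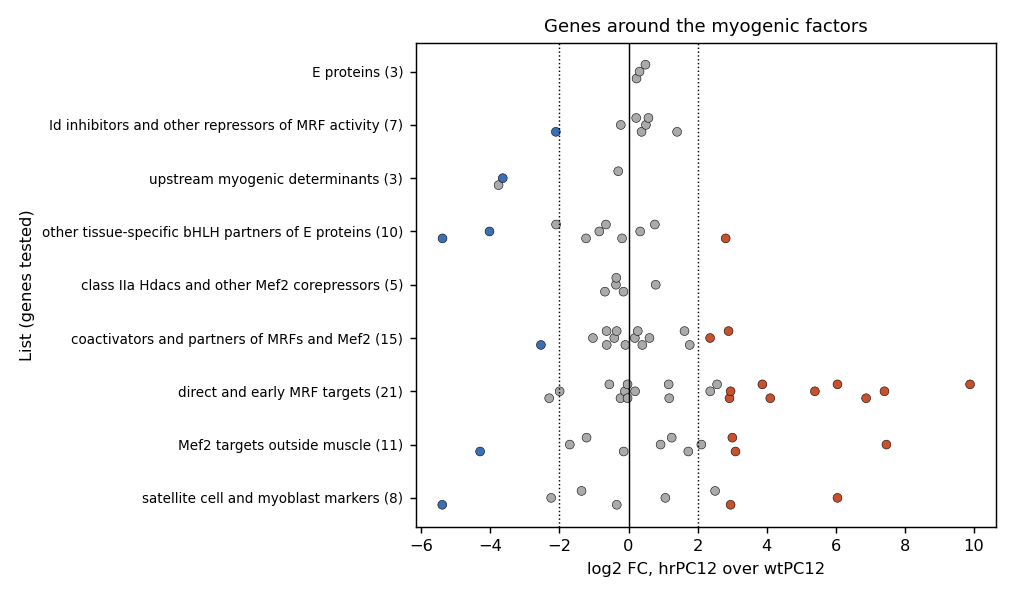
Log2 FC (hrPC12 over wtPC12) of each tested gene in the lists around the factors, with the number tested in parentheses, genes DE and higher in red, DE and lower in blue, others in grey, and dotted lines at 2 and -2. The direct and early targets of MRFs hold 9 DE and higher and 0 DE and lower genes of 21 tested, up to a log2 FC of 9.89. Among all tested genes the shares are 4.84% and 5.46%. Musk, Tnni1 and Actc1 passed the filter through hrPC12.

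Known direct and early targets of MRFs were DE and higher in hrPC12 in part. Of 31 genes, 27 were found and 21 tested, with 9 DE and higher and 0 DE and lower by edgeR and likewise by DESeq2. Among all tested genes, 4.84% were DE and higher and 5.46% DE and lower by edgeR. The median log2 FC was 2.37 against 0.06 over all tested genes. Musk, Tnni1 and Actc1, all DE and higher, had wtPC12 means of 1.61, 2.77 and 3.74 normalized counts. They passed the filter through hrPC12, which favours higher genes in the count and the median. At an unadjusted p under 0.05, 13 targets were higher and 2 lower. The largest log2 FC of the tested targets were those of Musk and Rapsn, genes of the neuromuscular synapse. Musk, the receptor kinase that organizes the synapse, had 1.16 and 2.06 normalized counts in wtPC12, under the floor, and 1671 and 1675 in hrPC12, at least 508-fold higher (fitted log2 FC 9.89, SE 0.36, edgeR adjusted p = 0.000261). Rapsn, which clusters acetylcholine receptors, had 32.6 and 23.7 in wtPC12 and 4753 and 4835 in hrPC12 (log2 FC 7.41, SE 0.26, edgeR adjusted p = 0.000261). The 2 hrPC12 libraries nearly coincided for both genes. Igfbp5, a binding protein of insulin-like growth factors, had 158 and 252 in wtPC12 and 29370.3 and 19147 in hrPC12 (log2 FC 6.88, SE 0.42, edgeR adjusted p = 0.000699).

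Itga7, the integrin chain that binds muscle cells to laminin, had 46.5 and 48.4 normalized counts in wtPC12 and 3094 and 3224 in hrPC12 (log2 FC 6.05, SE 0.22, edgeR adjusted p = 0.000261). Cdh15 (M-cadherin), an adhesion protein of myoblasts, rose from 159 and 122 normalized counts in wtPC12 to 999.8 and 1181 in hrPC12 (log2 FC 2.96, SE 0.27, edgeR adjusted p = 0.00203). Acta1, skeletal muscle actin, had 50.02 and 35.02 in wtPC12 and 588 and 662 in hrPC12 (log2 FC 3.88, SE 0.33, edgeR adjusted p = 0.00155), though reads of the near-identical muscle actins may be split between genes. Tmem8c (myomaker), required for myoblast fusion, had 0 reads in both libraries of wtPC12 and 54 and 49 reads in hrPC12, at least 14.5-fold above the floor. It could not enter the test, as wtPC12 had no read.

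Other targets were not DE. Ckm, the muscle creatine kinase and a classical target of Myod1 and Mef2, had 22.1 and 20.6 normalized counts in wtPC12 and 41.5 and 55.7 in hrPC12 (log2 FC 1.18, SE 0.40, edgeR adjusted p = 0.0796). Chrna1, the muscle acetylcholine receptor subunit, overlapped between the clones, with 89.6 and 78.3 in wtPC12 and 55.0 and 101 in hrPC12 (log2 FC -0.11, SE 0.42, edgeR adjusted p = 0.857). Des (desmin), the muscle intermediate filament, was lower in both hrPC12 libraries, at 17.8 and 9.11 against 72.1 and 37.1 (log2 FC -1.99, SE 0.58, edgeR adjusted p = 0.0527). The targets thus ranged from a log2 FC under 0 to 9.89. Of the 20 targets with a RefSeq promoter, 11 held CAGCTG (55.0%), 2 of 6 that were DE and higher and 5 of 7 that were tested and not DE.

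**Figure D5:**
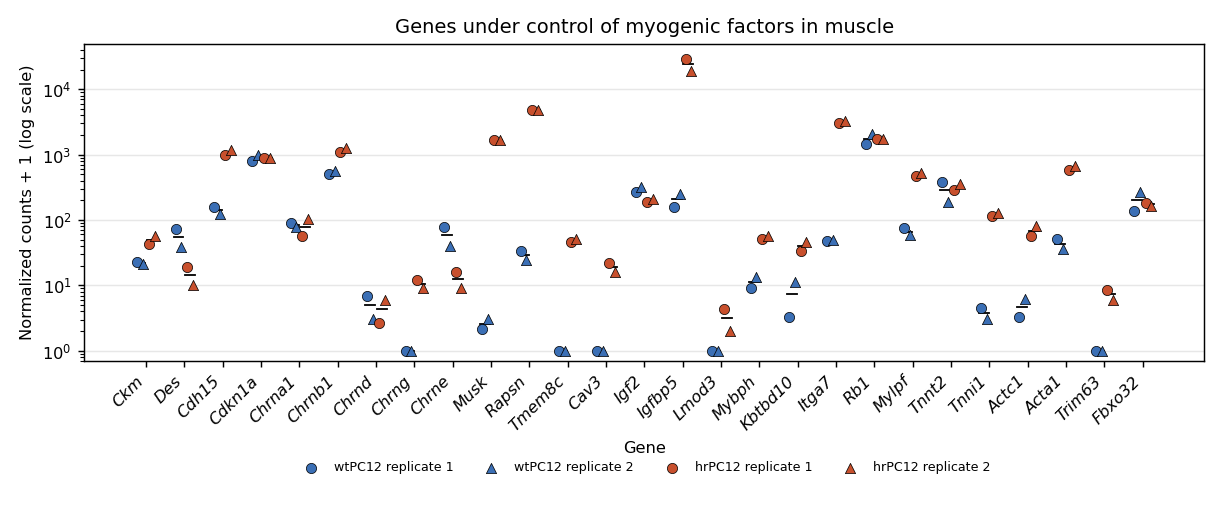
Normalized counts + 1, on a log axis, of the 27 direct and early targets of MRFs found by name, with a circle or triangle for replicate 1 or 2 of wtPC12 (blue) and hrPC12 (red) and a bar at the mean of each clone. Musk, Rapsn and Igfbp5 show wide gaps between the clones, whereas Chrna1 and Cdkn1a overlap.

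Some targets of Mef2 outside muscle were DE. Of 14 genes, 12 were found and 11 tested, at a median log2 FC of 1.25. DE and higher were 3 (4.84% of all tested genes), and DE and lower was 1 (5.46%). The higher genes were Adamts9, a secreted protease, and the Kruppel-like factors Klf6 and Klf2, with log2 FC of 7.47, 3.10 and 3.01 (edgeR adjusted p = 0.000285, adjusted p = 0.00276 and adjusted p = 0.00431). Arc, an activity-induced gene of synapses, was lower, with 2324 and 2022 normalized counts in wtPC12 and 84.7 and 137 in hrPC12 (log2 FC -4.30, edgeR adjusted p = 0.00117).

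Of 18 markers of satellite cells and myoblasts, 17 were found and 8 tested. DE and higher were 2 (4.84% of all tested genes), and DE and lower was 1 (5.46%). The higher genes, Cdh15 and Itga7, are also among the MRF targets above. The lower gene was Ncam1, a neural and myoblast adhesion molecule, with 394 and 800.4 normalized counts in wtPC12 and 17.8 and 10.1 in hrPC12 (log2 FC -5.39, SE 0.56, edgeR adjusted p = 0.00285). With every gene that had a read, 5 were DE and higher. Met, the receptor of hepatocyte growth factor, was not tested, as it had 0 reads in both wtPC12 libraries and 313 and 247 in hrPC12, at least 78.3-fold above the floor. Megf10, a receptor of satellite cells, had 0 reads in wtPC12 and 45 and 41 in hrPC12, at least 12.1-fold above it. Myf5 and Cd34 were listed at 0 in all libraries. Of the 8 tested markers, the DE genes were thus few, and their directions differed.

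Markers of cell types also differed between the clones. The shares over all tested genes, to set beside the counts below, were 4.84% DE and higher and 5.46% DE and lower. Of 20 genes of the skeletal muscle fibre, 12 were found and 11 tested, with 6 DE and higher and 0 DE and lower. At an unadjusted p under 0.05, 8 were higher and 1, Actn3, was lower (log2 FC -1.06, edgeR adjusted p = 0.0983). Summed levels were 280.2 to 326 normalized counts in wtPC12 and 5883 and 6017 in hrPC12. Myh2, a fast myosin heavy chain whose reads may be shared with its near-identical paralogs, made up 3972 and 3886 of the hrPC12 sums. It had the largest log2 FC of the tested genes, 5.90 (edgeR adjusted p = 0.000328), ahead of the troponin genes Tnni2 (5.39) and Tnnt3 (4.73). Of 15 cardiac genes 12 were found and 7 tested, with 2 DE and higher, and the sums were 526 and 311 in wtPC12 and 769.5 and 873 in hrPC12. The 2 were Casq2 and Actc1, the latter also one of the MRF targets above. Their wtPC12 means were 0.58 and 3.74 normalized counts, and both passed the filter through hrPC12. Of 9 smooth muscle genes 6 were found, 4 tested and 0 DE by edgeR or DESeq2, with 1 lower at an unadjusted p under 0.05, and sums of 2300.2 to 2321 in wtPC12 and 1939 to 1939.7 in hrPC12. Of 12 chromaffin genes 10 were found and 9 tested, with 6 DE and lower, and the sums were 956178 and 817924 in wtPC12 and 47414 and 51466 in hrPC12. Chgb, a chromogranin of secretory granules, made up 687936 and 626776 normalized counts of the wtPC12 sums. Th, the enzyme that starts catecholamine synthesis, still had 18729 and 21001 normalized counts in hrPC12. The largest part of the hrPC12 sums was Ddc, with 26281.2 and 27994.5. It was not DE, at 24195.7 and 20840.9 in wtPC12 (log2 FC 0.27, edgeR adjusted p = 0.322). Of 11 fibroblast and mesenchyme genes 10 were found and 7 tested, with 4 DE and higher. Of these 4, Col1a1 and Col1a2 had wtPC12 means of 4.19 and 2.91 normalized counts and passed the filter through hrPC12. The sums were 471 to 525 in wtPC12 and 85307 to 89741 in hrPC12. The collagen gene Col3a1 alone made up 83801 and 88143 normalized counts of the latter, and Dcn (decorin), a proteoglycan of connective tissue, was lower at an unadjusted p under 0.05 (log2 FC -3.10, edgeR adjusted p = 0.0182). The part of these cell type markers in the values of the factors was not tested, and in bulk RNA fewer cells of a type and less RNA per cell cannot be told apart.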

How the data were processed

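RNA was prepared with the TruSeq v2 kit, which does not mark strand, and sequenced as paired-end reads on an Illumina instrument. Per the submitters' processing notes, TopHat2 2.0.4, HTSeq 0.5.3 and DESeq 1.9.12 were used with the rat build rn4. The authors deposited raw counts of reads per gene for each library, without normalization. Whether counting used strand is not given in the sources used here. Their table of mean counts, fold changes and p values for the comparison of the clones was not used.

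The software was DESeq2 1.42.0 and edgeR 4.0.16 (with limma 3.58.1), run under R 4.3.3. The 5 summary rows of each file were left out. Of 18416 genes with a read, those with a mean of at least 5 TMM-normalized counts and reads in both clones, 13726, were tested with edgeR's quasi-likelihood test in its legacy form, p values being adjusted over all of them by Benjamini-Hochberg, where the study used DESeq. The SE is the log2 FC divided by the square root of F, and 95% intervals use the fit's degrees of freedom. Where neither library of a clone exceeded 3 reads, a gene has its fold computed against a floor of 3 reads per library. Counting intervals were not computed, and the floor covers counting error only. The fit was tested on simulated counts.

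The 10 factors, the lists of genes around them and the markers were chosen with earlier results of these data known. Named are the 10 factors, Tcf4, Rest, genes fixed by name, up to 4 DE genes with the largest log2 FC of a list, and for Myod1 and Myog the 3 genes nearest by Euclidean distance of log2(normalized count + 1). Tcf7l1, Th, Cd34, Cdkn1a, Met, Megf10, Dcn, Actn3, Ddc and Tnni1 were named after their values were seen, Tcf7l1 for its shared name. Some genes that the rule admits are not reported here. Gene lengths of the counts' build were not used here. The sums over markers and the distances between genes thus rest on normalized counts without correction for length. Genes missing from a list had no row of that name. The alternatives were DESeq2, filterByExpr, no filter beyond 1 read, RLE factors, library totals, the legacy option off, glmTreat, an adjusted p under 0.05, a prior count of 2, and each library left out in turn.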

Additional observations from a re-analysis of the deposited data

How the results depend on the processing

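Myod1, Myog and Mef2c were DE in the 8 alternatives that kept all 4 libraries and changed the normalization, the filter, the test or the prior count, with edgeR or DESeq2 adjusted p from 2.83e-81 to 0.000346 for Myod1, from 5.59e-05 to 0.00988 for Myog and from 1.28e-08 to 0.00246 for Mef2c. With 1 library left out, the number of factors DE and higher ranged from 0 to 3, and that of DE and lower was 0 in each. The genes of the lists other than the factors gave 15 DE and higher and 7 DE and lower, which became 7 and 4 with glmTreat, and ranged from 0 to 18 and from 0 to 7 with 1 library left out. The lowest values are those without wtPC12 replicate 2, where the spread rests on hrPC12 alone and the lone wtPC12 library is assumed to vary like it. There Myod1 had a log2 FC of 8.18 (edgeR adjusted p = 0.0134) and Mef2c 7.86 (edgeR adjusted p = 0.0151), so the direction held while the calls did not, and the cause was not tested. Without wtPC12 replicate 1, 2 factors were DE and 452 genes in all were DE and higher. With 1 library left out, the log2 FC of Mef2d ranged from -0.15 to 0.81, that of Tcf12 from -0.20 to 0.80 and that of Tcf4 from -0.21 to 1.07. The log2 FC of Mef2d turned to -0.10 without wtPC12 replicate 1 and to -0.15 without hrPC12 replicate 1, that of Tcf4 to -0.21 and -0.20, and that of Tcf12 to -0.20 without wtPC12 replicate 1. Over all tested genes, 665 were DE and higher and 749 DE and lower. These became 321 and 353 with glmTreat, 1127 and 977 with every gene that had a read, and 1088 and 1003 at an adjusted p under 0.05. The median of all log2 FC shifted from 0.06 to 0.16 at most. No paired analysis was possible because the sample titles of the 2 clones do not share replicate numbers, and the numbers used here only name the libraries. Depth limits Myf5, Myf6 and the wtPC12 levels of Myog and Mef2c, which lie at or under 3 reads except for Myf6 in hrPC12 replicate 1, with 10.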
